A study of Mus musculus with 12 samples.

Results

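The comparison set 6 arrays of mouse marrow cells exposed to 2-hydroxyglutarate (2HG) against 6 arrays of unexposed cells, which is all 12 arrays of the series, and asked which genes moved alike under both sources of the metabolite. The first source was the cells' own enzyme: the IDH1mut group carried the retroviral construct pSF91-IDH1mut-IRES-GFP, whose mutation is not named in the labels. The second was the compound: the R-2HG group carried the empty vector, and its recipients received R-2HG at 1 mg/day for 4 weeks. The unexposed arrays were the empty vector group and the IDH1wt group, which carried pSF91-IDH1wt-IRES-EGFP. Each of the 4 groups had 3 arrays. All groups shared the same start: marrow cells of C57BL6 mice immortalised with HoxA9, transduced with a retrovirus, transplanted into irradiated syngenic mice, and sorted as GFP positive from the recipients' marrow 4 weeks later. Nothing states that a group's arrays came from separate recipients, so the spread behind each p-value is that between these arrays and may be technical. For the R-2HG group the labels conflict: the descriptions give the mutant vector, whereas titles, sources and constructs give the empty vector and were used here.

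IDH1 is a cytosolic enzyme that oxidises isocitrate to 2-oxoglutarate while making NADPH, and cancer-associated mutants reduce 2-oxoglutarate to the R enantiomer of 2HG. R-2HG resembles 2-oxoglutarate and can compete with it in dioxygenases such as the TET 5-methylcytosine oxidases, the histone lysine demethylases and the prolyl hydroxylases. In acute myeloid leukaemia, IDH mutations are known for altered DNA methylation and impaired myeloid differentiation. Neutrophil precursors make their granules in order, first the primary granules with myeloperoxidase and serine proteases, then the secondary granules with lactoferrin, and last the gelatinase granules.

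The values are log2 signals that the submitters centred per probe set, so 0 is a probe set's own reference and not an absence of signal. A gene's value is the mean over all its probe sets that name exactly 1 gene symbol, and 15858 genes were tested without any filter on low values. Because the centring removed absolute levels, the labelled cell type could not be checked against the presence of its markers, and levels of different genes cannot be set against each other. R-2HG replicates 1 and 2 stood apart from the other 10 arrays: on the first principal component they lay at 43.0 and 44.6, R-2HG replicate 3 at 13.4 and every other array at or below 0.49. The SD of gene-wise differences was 0.152 between R-2HG replicates 1 and 2 but 0.341 to 0.350 between either of them and replicate 3. How a list changed without them is given below where its number of genes that moved alike changes by more than 1.5 times. That number fell over all genes too, so a fall in a list is not read as particular to it.

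Exposed and unexposed arrays differed widely. In the pooled comparison, the mean of the IDH1mut and R-2HG groups minus the mean of the empty vector and IDH1wt groups, limma called 6358 genes at an adjusted p under 0.05 (40.1% of the genes tested). Of these, 2686 were higher in exposed cells (16.9%) and 3672 lower (23.2%). Each source was then set against its own control. IDH1mut minus IDH1wt, the mutant effect, called 2484 genes (15.7%; 8.37% higher and 7.29% lower), and R-2HG minus empty vector, the treatment effect, called 6471 (40.8%; 16.5% higher and 24.3% lower). These 2 comparisons share no arrays. A gene was said to have moved alike when both called it in the same direction, and 1442 genes did so (9.09%), of which 641 were higher (4.04%) and 801 lower (5.05%). Another 56 genes (0.353%) were called in both with opposite signs. The genes that moved alike made up 58.1% of the mutant calls and 22.3% of the treatment calls. Across all genes the 2 effects correlated with a Pearson r of 0.44 and a Spearman rho of 0.44, given as a description since genes are not independent replicates. Without R-2HG replicates 1 and 2 the genes that moved alike numbered 761, of which 662 were among the 1442. Without IDH1wt replicate 3 they numbered 937, of which 919 were shared. Gene lists are described below by such counts, and where a list held no gene that moved alike in a direction, at most 2 of its genes had an unadjusted limma p under 0.05 that way with both sources.

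**Figure D1:**
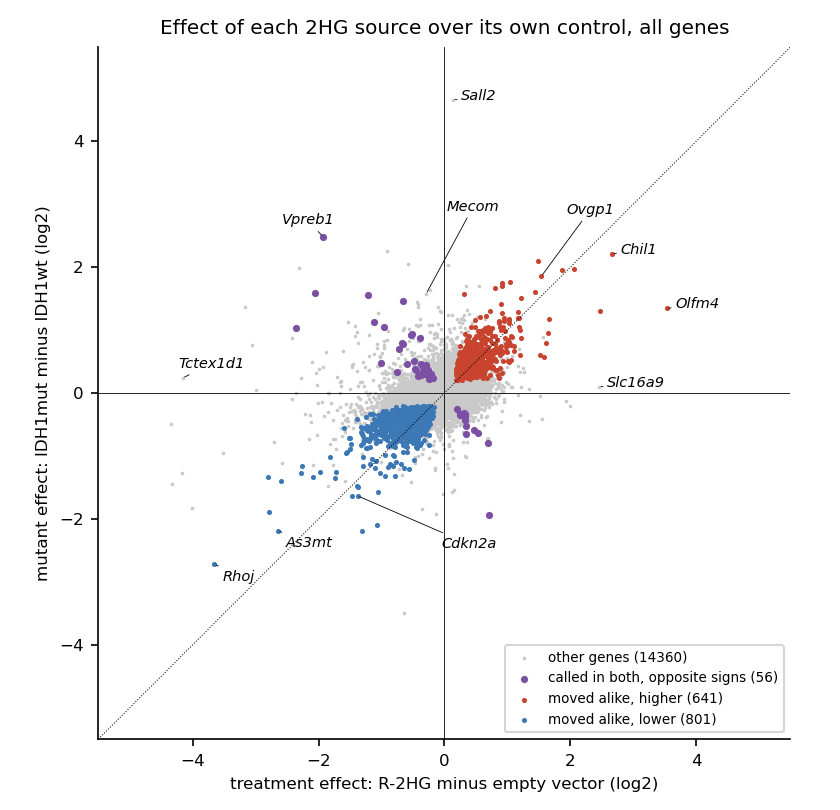
The mutant effect (vertical axis, log2) against the treatment effect (horizontal axis, log2) for all 15858 genes; 1 point is 1 gene and the dotted diagonal marks equal effects. The 641 genes that moved alike upwards and the 801 that moved alike downwards lie in the upper right and lower left, the 56 called with opposite signs in the other quadrants, and Sall2, Tctex1d1 and Slc16a9 lie near an axis, moved by 1 source.

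Most shifts that both sources shared were moderate. Among the 641 higher genes the median effect was 0.48 log2 with the mutant and 0.43 with the treatment, and among the 801 lower genes it was -0.41 and -0.55. At least a 2-fold change in both sources was reached by 18 higher and 26 lower genes. The treatment moved 820 of the 1442 genes further than the mutant did (56.9%). The difference between the 2 effects itself passed the test in 97 of them (6.73%). The share over all genes was 10.5%, and nothing is read from the gap, since genes were chosen for effects of the same sign. Of the remaining genes called in the pooled comparison, 4916 did not move alike: 3534 were called with the treatment alone, 751 with the mutant alone, 626 in neither and 5 in both with opposite signs.

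In 480 of the 641 higher genes (3.03% of all genes tested) every exposed array lay above every unexposed one, and in 695 of the 801 lower genes (4.38%) every exposed array lay below. Irrespective of the source tests, such a complete separation was seen upwards in 4.47% and downwards in 8.63% of all genes. The 15 largest separated shifts in each direction are drawn in the map of centred values by array. Of these 30 genes, 26 moved alike without R-2HG replicates 1 and 2, and 23 did so in all 19 other settings tried.

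**Figure D2:**
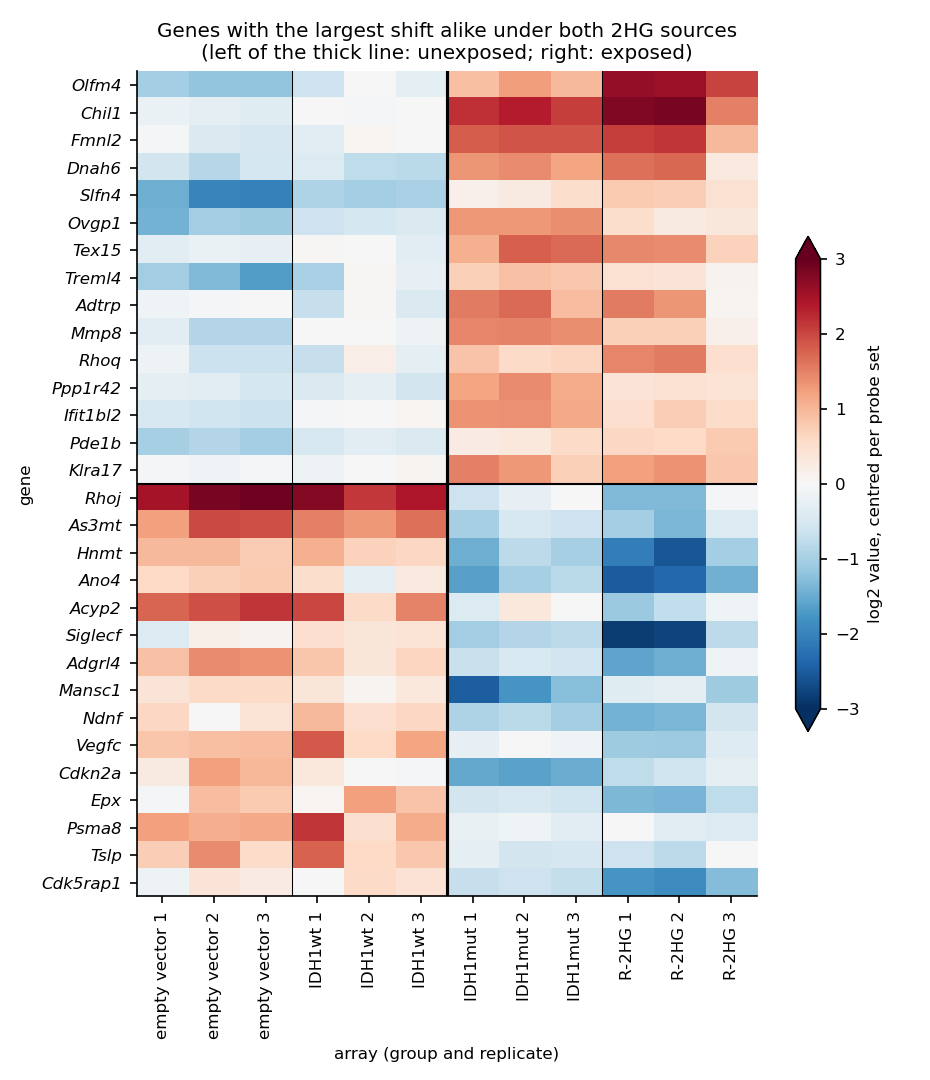
Centred log2 value (colour, from -3 in blue to 3 in red) of the 30 separated genes with the largest pooled shift, 15 higher and 15 lower (rows), in each of the 12 arrays (columns). Unexposed arrays are left of the thick line and exposed arrays right of it; R-2HG replicate 3 is paler than replicates 1 and 2 in most rows, for example 0.97 against 2.08 and 2.14 in Fmnl2.

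The largest increases were in neutrophil products. Olfm4, olfactomedin 4, a glycoprotein stored in the secondary granules of a subset of neutrophils, lay at -1.01, -1.19 and -1.19 in the empty vector arrays and at -0.61, 0.00 and -0.27 in the IDH1wt arrays. It rose to 0.91, 1.26 and 0.98 with IDH1mut and to 2.63, 2.56 and 2.03 with R-2HG. All exposed arrays were above all unexposed ones, and the R-2HG arrays were the highest. The pooled difference was 2.44 ± 0.12 log2 (SE, adjusted p = 6.97e-07), made of a mutant effect of 1.35 ± 0.18 and a treatment effect of 3.54 ± 0.18, and the 2 effects differed (difference -2.19, adjusted p = 0.00181). Chil1, a chitinase-like protein of the secondary granules, lay between -0.37 and 0.02 in the 6 unexposed arrays, at 2.20, 2.35 and 2.08 with IDH1mut and at 2.78, 2.85 and 1.51 with R-2HG. Its 2 effects were 2.21 ± 0.26 and 2.67 ± 0.26 (difference -0.46, 95% interval -1.27 to 0.36, adjusted p = 0.434).

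Further genes of the upper group had a range of roles. Slfn4, a Schlafen family gene of myeloid cells, lay from -2.02 to -0.93 in unexposed arrays and from 0.16 to 0.78 in exposed ones. Its treatment effect was larger than its mutant effect (2.48 ± 0.15 against 1.31 ± 0.15, adjusted p of the difference 0.0116). The controls differed too: IDH1wt lay 0.84 above the empty vector (limma adjusted p = 0.0179), while IDH1mut minus R-2HG was -0.33 (adjusted p = 0.0987). Ovgp1, a secreted glycoprotein of the chitinase family, was 1.29, 1.29 and 1.39 with IDH1mut, 0.52, 0.27 and 0.33 with R-2HG and between -1.41 and -0.44 in unexposed cells. Its 2 effects were 1.85 ± 0.11 and 1.54 ± 0.11. Fmnl2, a formin that elongates actin filaments, rose by 2.01 ± 0.18 log2 in the pooled comparison (adjusted p = 1.72e-05). Dnah6, a dynein heavy chain of cilia, rose by 1.92 ± 0.21, and Tex15, a protein of germ cell meiosis, by 1.53 ± 0.15. Treml4, a receptor of myeloid cells, rose by 1.42 ± 0.15, Klra17, a lectin receptor of the Ly49 family, by 1.19 ± 0.13, and Pde1b, a calmodulin-dependent phosphodiesterase of cyclic nucleotides, by 1.21 ± 0.07. Rhoq, a GTPase related to Cdc42, rose by 1.30 ± 0.19 and Adtrp by 1.41 ± 0.23, but neither moved alike without R-2HG replicates 1 and 2.

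The largest decrease was in Rhoj, another GTPase related to Cdc42. It lay at 2.49, 2.86 and 2.93 with the empty vector and at 2.75, 2.12 and 2.44 with IDH1wt. With IDH1mut it lay at -0.61, -0.24 and 0.00, and with R-2HG at -1.32, -1.33 and -0.05. The lowest unexposed array stood 2.12 log2 units above the highest exposed one, and the pooled difference was -3.19 ± 0.21 (adjusted p = 3.62e-06). R-2HG replicate 3 was the least shifted of its group, and without replicates 1 and 2 the pooled difference was -2.76. As3mt, the arsenite methyltransferase, fell by 2.42 ± 0.17 and Hnmt, the histamine N-methyltransferase, fell by 2.34 ± 0.22. Ano4, a membrane protein of the anoctamin family, fell by 2.06 ± 0.20, with a larger treatment than mutant effect (-2.80 ± 0.28 against -1.33 ± 0.28; adjusted p of the difference 0.0397). Acyp2, an acylphosphatase, fell by 2.00 ± 0.23. Vegfc, a growth factor of lymphatic vessels, fell by 1.54 ± 0.18 on all 3 of its probe sets, and Adgrl4, an adhesion receptor of endothelium, by 1.71 ± 0.22 on both of its probe sets. Tslp, a cytokine, fell by 1.43 ± 0.21, and Cdk5rap1, a mitochondrial tRNA-modifying enzyme, by 1.41 ± 0.13. Of these, Tslp did not move alike without R-2HG replicates 1 and 2. The call on Adgrl4 was lost without IDH1wt replicate 1 or 3 or any IDH1mut array, and that on Acyp2 without IDH1wt replicate 1 or 3 or IDH1mut replicate 1.

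Primary granule genes fell and most secondary granule and mature neutrophil genes rose with both sources. The primary granule list held myeloperoxidase and serine proteases (Mpo, Ctsg, Elane and Prtn3) and also Nkg7, Ms4a3 and Cst7. Of its 7 measured genes, 6 moved alike downwards and none upwards, against 5.05% and 4.04% of all genes. All 7 were lower in the pooled comparison (23.2% of all genes). Their median was -0.81 log2 for the mutant effect and -0.62 for the treatment effect, against 0.00 for both effects over all genes. Ctsg, cathepsin G, lay between 0.06 and 0.38 in unexposed arrays, at -0.59, -0.77 and -0.53 with IDH1mut and at -0.30, -0.28 and -0.36 with R-2HG. The groups did not overlap, and its 2 effects were -0.85 ± 0.09 (adjusted p = 0.000205) and -0.62 ± 0.09 (adjusted p = 0.000323). Mpo, myeloperoxidase, fell by 0.67 ± 0.08 with the mutant and by 0.25 ± 0.08 with the treatment, and the 2 effects differed (adjusted p = 0.046). Elane, neutrophil elastase, fell by 0.81 ± 0.13 and 0.43 ± 0.13, and Prtn3, proteinase 3, by 0.74 ± 0.10 and 0.32 ± 0.10. Nkg7, a granule membrane protein, fell by 1.00 ± 0.09 and 0.81 ± 0.09, and Ms4a3, a marker of granulocyte and monocyte progenitors, by 0.59 ± 0.12 and 0.89 ± 0.12. Cst7, an inhibitor of cathepsins, had effects of -1.44 ± 0.87 and -4.33 ± 0.87 and was called with the treatment only. The count of 6 dropped to 3 without empty vector replicate 2 or without replicate 3, when Mpo, Elane and Prtn3 were no longer called with the treatment. Ctsg, Nkg7 and Ms4a3 were then the genes of the list that moved alike.

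Among 21 genes of the secondary granules and of mature neutrophils, 13 moved alike upwards and none downwards, beside 4.04% and 5.05% of all genes. The median effect was 0.55 log2 with the mutant and 0.42 with the treatment. Ltf, lactoferrin, lay between -0.36 and -0.15 in unexposed arrays, at 0.37, 0.48 and 0.42 with IDH1mut and at 0.41, 0.41 and 0.20 with R-2HG, which gave effects of 0.60 ± 0.08 and 0.63 ± 0.08 (difference -0.03, 95% interval -0.28 to 0.22). Mmp8, neutrophil collagenase, rose by 1.51 ± 0.17 and 1.22 ± 0.17. Padi4, which citrullinates histones in neutrophils, rose by 0.88 ± 0.10 and 1.07 ± 0.10, and the formyl peptide receptor Fpr2 by 0.99 ± 0.11 and 0.96 ± 0.11. Mmp9, the gelatinase, rose by 0.47 ± 0.10 and 0.71 ± 0.10. Lcn2, which binds bacterial siderophores, rose by 0.33 ± 0.06 and 0.37 ± 0.06. Csf3r, the G-CSF receptor, rose by 0.52 ± 0.11 and 0.77 ± 0.11, and Cxcr2, a chemokine receptor of mature neutrophils, by 0.79 ± 0.14 and 0.48 ± 0.14. The list did not move as a whole. Ngp, neutrophilic granule protein, had effects of 0.05 ± 0.06 and 0.03 ± 0.06, and S100a8, a subunit of calprotectin, of 0.05 ± 0.06 and 0.06 ± 0.06. Anxa1, annexin A1, rose with the mutant (0.89 ± 0.10) while its treatment effect was -0.12 ± 0.10, and Pglyrp1, which binds bacterial peptidoglycan, had effects of 0.56 ± 0.07 and 0.02 ± 0.07. Both differed between the sources (adjusted p = 0.0053 and 0.0133). Without R-2HG replicates 1 and 2 fewer genes moved alike, in the list and over all genes. The list's median pooled difference was then 0.45 log2, against 0.50 with them. In sorted cells measured in bulk, fewer cells of a type and less RNA per cell cannot be told apart.

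**Figure D3:**
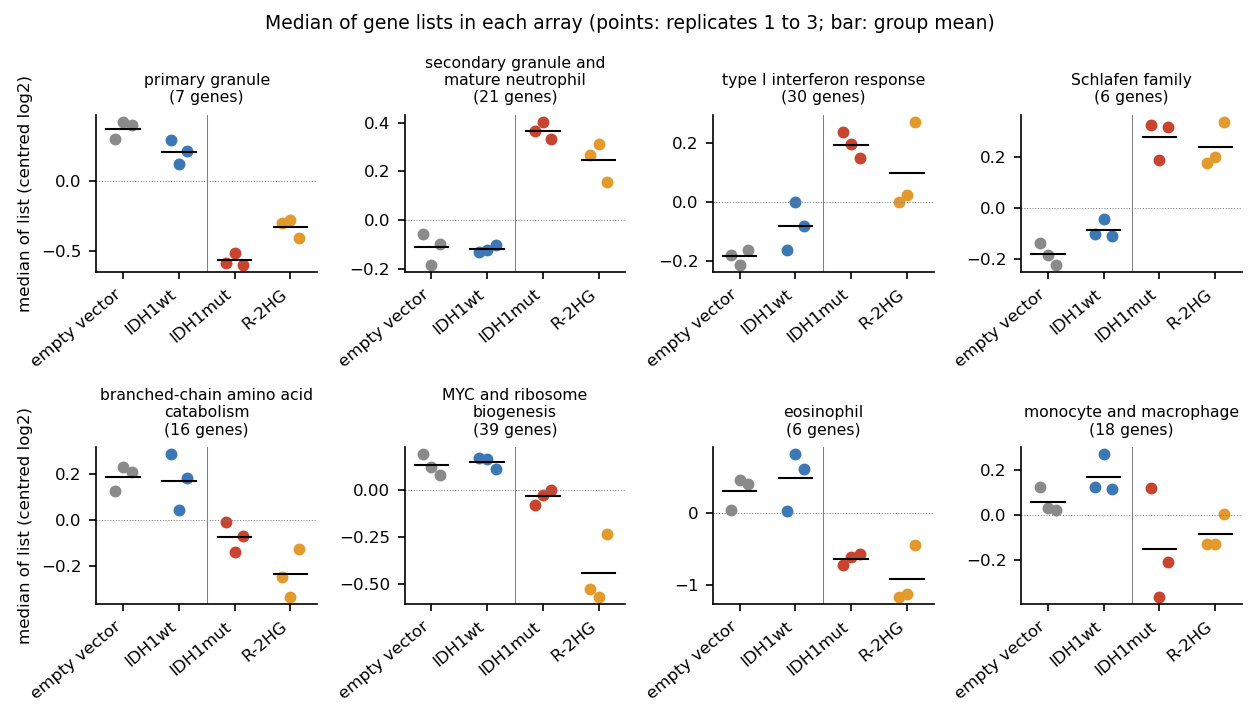
Median centred log2 value of 8 gene lists (panels, number of measured genes in brackets) in each array; points are the 3 arrays of a group, bars the group means, and the grey line separates unexposed from exposed groups. The primary granule median lies at or above 0.11 in the 6 unexposed arrays and at or below -0.28 in the 6 exposed ones, and the secondary granule median changes the other way.

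Of 30 measured genes of the type I interferon response, 7 moved alike upwards and 1 downwards, beside 4.04% and 5.05% of all genes. In the pooled comparison 17 were higher and 2 lower, beside 16.9% and 23.2% of all genes. These genes carry out or relay the antiviral state. Ifit3, which restricts viral RNA, lay at -0.69, -0.87 and -0.81 with the empty vector and at -0.08, 0.00 and -0.07 with IDH1wt. It lay at 1.14, 0.73 and 0.60 with IDH1mut and at 0.18, 0.16 and 0.94 with R-2HG. The groups did not overlap, and here R-2HG replicate 3 was the highest of its group. The effects were 0.87 ± 0.19 (adjusted p = 0.00859) and 1.22 ± 0.19 (adjusted p = 0.000484). Rsad2, viperin, rose by 0.84 ± 0.12 and 0.73 ± 0.12 on all 3 of its probe sets, although R-2HG replicates 1 and 2 (-0.02 and -0.07) overlapped the unexposed arrays. Oas2, a sensor of double-stranded RNA, rose by 0.73 ± 0.14 and 0.88 ± 0.14, and Ddx58, the RNA sensor RIG-I, by 0.40 ± 0.08 and 0.47 ± 0.08. The call on Ddx58 was lost with the probe set of highest SD. Most of the list did not move alike, among them Ifit1, Ifit2, Ifih1, Irf7 and Stat2. Outside that list, Ifit1bl1 and Ifit1bl2, relatives of Ifit1 that adjoin Ifit3 among the measured genes of chromosome 19, rose by 1.18 ± 0.06 and 1.22 ± 0.06 in the pooled comparison. These near-identical neighbours can share probes, so their separate values are uncertain. Bst2, tetherin, was the interferon gene that fell (-0.81 ± 0.18 and -0.62 ± 0.18). It is also held by the list for dendritic cells, and its call was lost without empty vector replicate 2, R-2HG replicate 1 or 2, or both of the latter.

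Schlafen genes encode regulators of lymphoid and myeloid growth. Of 6 measured, 3 moved alike upwards and none downwards, beside 4.04% and 5.05% of all genes. Besides Slfn4, Slfn1 rose by 0.97 ± 0.12 and 0.60 ± 0.12, and Slfn2 by 0.78 ± 0.09 and 0.54 ± 0.09. Slfn2 lay between -0.28 and -0.15 in unexposed arrays and between 0.31 and 0.82 in exposed ones. The other 3 did not rise alike. Slfn5 had effects of -0.14 ± 0.11 and 0.44 ± 0.11, which differed (adjusted p = 0.0348), and Slfn8 had 0.34 ± 0.16 and 0.13 ± 0.16. Slfn9 went the other way (-0.36 ± 0.11 and -0.33 ± 0.11), called lower with the treatment and in the pooled comparison but not with the mutant. A Schlafen gene moved alike downwards with the probe set of highest SD, with array weights, and without IDH1wt replicate 2 or IDH1mut replicate 1. Slfn2, Slfn1 and Slfn4 adjoin each other among the measured genes of chromosome 11, and related members may share probes.

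The bases before the annotated starts of some of these genes are shown because they are neighbours that moved alike, with Rsad2, of another chromosome, beside them. They come from RefSeq (GRCm38.p6) and read 5′ to 3′ towards the gene, ending at the last base before its start. The first set gives 160 bases each, with capitals marking 2 copies of TTTC that are 2 bases apart, the core of the interferon-stimulated response element, or its reverse complement. Ifit3 lies at chr19:34583369-34583528 on the plus strand, Ifit1bl1 at chr19:34601969-34602128 on the minus strand and Ifit1bl2 at chr19:34640744-34640903 on the minus strand, each of the latter pair being the first of 2 annotated windows. The second window of Ifit1bl1 also holds 1 such pair, and that of Ifit1bl2 holds 0. Rsad2 lies at chr12:26456453-26456612 on the minus strand.
Ifit3: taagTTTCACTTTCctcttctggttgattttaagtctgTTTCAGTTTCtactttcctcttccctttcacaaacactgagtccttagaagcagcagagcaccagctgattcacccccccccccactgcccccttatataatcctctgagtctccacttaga
Ifit1bl1: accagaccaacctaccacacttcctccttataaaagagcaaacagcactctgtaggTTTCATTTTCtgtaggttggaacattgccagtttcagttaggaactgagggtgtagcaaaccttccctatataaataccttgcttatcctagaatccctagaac
Ifit1bl2: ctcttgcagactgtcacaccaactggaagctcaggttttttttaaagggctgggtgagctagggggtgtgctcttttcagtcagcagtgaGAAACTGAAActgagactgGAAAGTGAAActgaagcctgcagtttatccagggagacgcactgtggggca
Rsad2: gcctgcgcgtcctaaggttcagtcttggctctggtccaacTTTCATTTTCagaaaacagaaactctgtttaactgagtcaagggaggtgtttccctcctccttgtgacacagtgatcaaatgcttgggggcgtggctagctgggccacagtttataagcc

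The second set gives 120 bases of the 3 Schlafen genes that rose, with capitals marking ACTTCCTGGAG, a stretch of 11 letters that they share and that was picked after the sequences were compared. Slfn1 lies at chr11:83116700-83116819 on the plus strand, Slfn2 at chr11:83064992-83065111 on the plus strand and Slfn4 at chr11:83175066-83175185 on the plus strand.
Slfn1: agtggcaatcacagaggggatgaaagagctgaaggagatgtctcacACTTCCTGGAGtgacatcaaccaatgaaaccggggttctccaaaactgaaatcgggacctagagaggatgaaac
Slfn2: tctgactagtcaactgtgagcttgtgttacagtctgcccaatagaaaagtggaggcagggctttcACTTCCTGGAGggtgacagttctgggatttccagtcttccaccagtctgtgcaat
Slfn4: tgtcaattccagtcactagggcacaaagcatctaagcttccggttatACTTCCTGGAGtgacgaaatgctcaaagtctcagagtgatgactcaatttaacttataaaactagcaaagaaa

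In the 250 bases before the start, on either strand, this spaced pair of TTTC was found in 2.98% of 32851 annotated mouse windows and in 8 of 22 interferon list genes with a window, including 3 of the 6 that moved alike upwards. Among the genes measured here it was in 3.17% of all, in 4.60% of those that moved alike upwards and in 3.47% of those that moved alike downwards. The windows of Slfn1, Slfn2 and Slfn4 do not hold it, while those of Slfn5, Slfn8 and Slfn9 do. ACTTCCTGGAG is in 20 of the 32851 windows (0.0609%), on either strand, those of Slfn1, Slfn2 and Slfn4 among them. Nothing is read from this share, since the stretch was picked from these windows. CACGTG, the E-box that MYC and MAX bind, was found in 9.15% of measured genes, 8.81% of those that moved alike upwards and 9.97% of those that moved alike downwards. The median number of CpG dinucleotides in the 250 bases was 15 in both groups and 14 over all genes. Windows were held for 522 of the 641 higher and 662 of the 801 lower genes. A match of letters is a description and not a binding site.

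Among 16 measured genes that break down branched-chain amino acids, 7 moved alike downwards and none upwards, beside 5.05% and 4.04% of all genes, and 11 were lower in the pooled comparison (23.2% of all genes). Dbt, the acyltransferase core of the branched-chain ketoacid dehydrogenase, lay between 0.29 and 0.47 in unexposed arrays, at -0.37, -0.27 and -0.12 with IDH1mut and at -0.34, -0.53 and -0.32 with R-2HG. The groups did not overlap, and the effects were -0.66 ± 0.09 and -0.72 ± 0.09 (difference 0.06, 95% interval -0.20 to 0.32). Bckdha and Bckdhb, the decarboxylase subunits of the same complex, fell by 0.59 ± 0.11 and 0.45 ± 0.13 with the mutant and by 0.77 ± 0.11 and 0.86 ± 0.13 with the treatment. Further along the pathway, Ivd, isovaleryl-CoA dehydrogenase, fell by 0.42 ± 0.10 and 0.69 ± 0.10, Mccc2, a subunit of methylcrotonyl-CoA carboxylase, by 0.39 ± 0.12 and 0.59 ± 0.12, and Echs1, an enoyl-CoA hydratase, by 0.58 ± 0.15 and 1.13 ± 0.15. Bckdk, the kinase that switches the complex off, fell by 0.27 ± 0.06 and 0.34 ± 0.06, a call lost with the probe set of highest SD. The transaminases at the entry of the pathway behaved otherwise: Bcat1 had effects of 0.06 ± 0.11 and 0.28 ± 0.11, neither called, and Bcat2 of -0.12 ± 0.14 and -0.73 ± 0.14, called with the treatment. Hibadh, of the valine branch, differed between the sources (-0.13 ± 0.10 and -0.72 ± 0.10, adjusted p of the difference 0.0272). The count of 7 dropped to 4 without IDH1wt replicate 3 and to 3 without IDH1mut replicate 2.

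Of the 2HG pathway itself, 3 of 7 isocitrate and 2HG dehydrogenase genes were lower in the pooled comparison, beside 23.2% of all genes. So were 5 of 9 genes of DNA methylation and demethylation and 11 of 39 other 2-oxoglutarate dioxygenases. Of these lists only the last held genes that were higher, 4 of them (16.9% of all genes). The counts of genes that moved alike are small here and are only set beside 9.09% of all genes. None of 7 measured isocitrate and 2HG dehydrogenase genes did by limma, where 2 were lower with both sources at an unadjusted p under 0.05 and 1 moved alike downwards without R-2HG replicates 1 and 2. Idh1, where it is unknown whether the array reads the introduced copy, had a mutant effect of 0.10 ± 0.11 and a treatment effect of 0.12 ± 0.11. Idh2, the mitochondrial enzyme, had effects of -0.27 ± 0.09 (adjusted p = 0.0545) and -0.81 ± 0.09 (adjusted p = 7.97e-05), which differed (adjusted p = 0.023). D2hgdh, which oxidises R-2HG back to 2-oxoglutarate, had effects of -0.02 ± 0.09 and -0.16 ± 0.09. Of 9 genes of DNA methylation and demethylation 1 moved alike: Dnmt1, the maintenance methyltransferase, lay between 0.06 and 0.21 in unexposed arrays and between -0.37 and -0.19 in exposed ones, and fell by 0.42 ± 0.06 and 0.38 ± 0.06 on all 3 of its probe sets. Without R-2HG replicates 1 and 2 its treatment effect was no longer called. Dnmt3a, a de novo methyltransferase, had effects of -0.24 ± 0.09 (adjusted p = 0.107) and -0.53 ± 0.09, and Tet2 of -0.16 ± 0.10 and 0.18 ± 0.10, neither called. Of 39 other 2-oxoglutarate dioxygenases 3 moved alike downwards and none upwards, beside 5.05% and 4.04% of all genes. They were Egln1, a prolyl hydroxylase that marks HIF for degradation (-0.40 ± 0.11 and -0.62 ± 0.11), Kdm2b, a histone demethylase (-0.42 ± 0.09 and -0.39 ± 0.09), and Plod3, a collagen lysyl hydroxylase (-0.29 ± 0.08 and -0.31 ± 0.08). With the probe set of highest SD the calls on Egln1 and Plod3 were lost. None of the 3 calls held without R-2HG replicates 1 and 2, and the count was 1 without IDH1wt replicate 1 or 3 or IDH1mut replicate 2 or 3 and 5 without R-2HG replicate 3.

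Of 7 cyclin-dependent kinase inhibitors 1 moved alike, beside 9.09% of all genes. This was Cdkn2a, which encodes the cell cycle inhibitor INK4A and the p53 stabiliser ARF. It lay at 0.26, 1.22 and 1.01 with the empty vector, at 0.31, 0.02 and -0.05 with IDH1wt, at -1.54, -1.60 and -1.50 with IDH1mut and at -0.76, -0.61 and -0.28 with R-2HG. The exposed arrays were all below the unexposed ones, and the effects were -1.63 ± 0.21 and -1.38 ± 0.21 (difference -0.26, 95% interval -0.89 to 0.38). Of 22 p53 target genes 4 moved alike upwards and none downwards, beside 4.04% and 5.05% of all genes. Ddb2, a sensor of damaged DNA, rose by 0.73 ± 0.11 and 0.68 ± 0.11, Trp53inp1, a p53-induced nuclear protein, by 0.38 ± 0.07 and 0.58 ± 0.07, Btg2, an antiproliferative gene, by 0.83 ± 0.10 and 0.35 ± 0.10, and Mdm2, the ubiquitin ligase for p53, by 0.39 ± 0.07 and 0.19 ± 0.07. Of these only Trp53inp1 moved alike without R-2HG replicates 1 and 2, and 2 of the list did without empty vector replicate 2 or 3 or R-2HG replicate 2.

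Of 39 genes of MYC and ribosome biogenesis 32 were lower with the treatment (24.3% of all genes) and 5 with the mutant (7.29%). In the pooled comparison 32 were lower (23.2% of all genes). The median pooled difference was -0.41 log2, or -0.27 without R-2HG replicates 1 and 2. Of the list 5 moved alike downwards and 1 upwards, beside 5.05% and 4.04% of all genes. The median effect was -0.20 with the mutant and -0.63 with the treatment. The 2 effects differed in 12 of the 39 genes, beside 10.5% of all genes. Over all genes that count was 1672, or 446 without R-2HG replicate 1. Mybbp1a, a nucleolar MYB-binding protein, lay between 0.31 and 0.54 in unexposed arrays, between -0.30 and -0.10 with IDH1mut and between -0.64 and -0.19 with R-2HG, and fell by 0.58 ± 0.11 and 0.94 ± 0.11. Utp20, a ribosome assembly factor, fell by 0.57 ± 0.12 and 0.76 ± 0.12, and Rrs1, another, by 0.38 ± 0.08 and 0.45 ± 0.08. Max, the binding partner of MYC, rose by 0.50 ± 0.06 and 0.32 ± 0.06. Without R-2HG replicates 1 and 2 Mybbp1a moved alike, but Utp20, Rrs1 and Max did not. Myc had effects of -0.36 ± 0.13 (adjusted p = 0.0776) and -1.16 ± 0.13 (adjusted p = 9.1e-05), which differed (adjusted p = 0.0229), although all its exposed arrays lay below all unexposed ones. The count of 5 was 12 without R-2HG replicate 3, 3 without empty vector replicate 2, 13 after a second quantile normalization and 11 against all 6 unexposed arrays. Of 38 genes of DNA replication 6 moved alike downwards and 1 upwards, beside the same shares of 5.05% and 4.04%. Mcm3, a subunit of the replicative helicase, fell by 0.30 ± 0.07 and 0.52 ± 0.07, Pold1, a polymerase subunit, by 0.41 ± 0.08 and 0.60 ± 0.08, and Cdk6, a G1 kinase, by 0.62 ± 0.13 and 0.69 ± 0.13. The call on Cdk6 was lost without R-2HG replicates 1 and 2, and that on Pold1 with the probe set of highest SD. The gene that rose was Ccnd3, a G1 cyclin. The count of 6 was 3 without empty vector replicate 3, and Ccnd3 was lost without IDH1wt replicate 1 or 3, IDH1mut replicate 1 or 3, R-2HG replicate 1, or both R-2HG replicates 1 and 2. None of 35 genes of mitosis moved alike by limma, and 1 was lower with both sources at an unadjusted p under 0.05. The mutant called 1 of them higher and none lower (1 at an unadjusted p under 0.05), and the treatment called 16 lower and none higher (1 at an unadjusted p under 0.05).

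Transcription factors of myeloid fate moved in both directions. Of 14 measured, 3 moved alike downwards and 1 upwards. The shares over all genes, 5.05% downwards and 4.04% upwards, also stand beside the Hoxa and stem cell lists below. Cebpa, the factor that starts granulocyte commitment, lay between 0.25 and 0.43 in unexposed arrays and between -0.33 and 0.11 in exposed ones, and fell by 0.55 ± 0.08 and 0.40 ± 0.08. Irf8, which directs monocyte fate, fell by 0.86 ± 0.15 and 0.59 ± 0.15, and Zeb2, a repressor active in monocytes, by 0.42 ± 0.10 and 0.31 ± 0.10. Id2, an inhibitor of helix-loop-helix factors, rose by 1.23 ± 0.13 and 0.66 ± 0.13 on all 3 of its probe sets. Without R-2HG replicates 1 and 2 only Cebpa of these 4 moved alike. Of 13 Hoxa, Meis and Pbx genes Pbx2 moved alike upwards (0.35 ± 0.08 and 0.37 ± 0.08) and Pbx3 downwards (-0.60 ± 0.17 and -0.58 ± 0.17), the latter in 6 of 19 other settings and lost without any single array except empty vector replicate 1 and R-2HG replicate 3, as well as without R-2HG replicates 1 and 2. The immortalising gene did not move alike: Hoxa9, where that is equally unknown, had effects of -0.54 ± 0.08 and 0.07 ± 0.08, which differed (adjusted p = 0.0135). Its cofactor Meis1 had 1.02 ± 0.16 and -0.06 ± 0.16 (adjusted p of the difference 0.019). Of 20 stem and progenitor genes Cd48 fell alike (-0.59 ± 0.11 and -0.73 ± 0.11) and Slamf1 rose alike (0.44 ± 0.11 and 0.32 ± 0.11). Both encode receptors of the SLAM family used to sort stem cells, and the call on Slamf1 was lost in 10 of 19 settings, among them the one without R-2HG replicates 1 and 2. The number of genes that fell alike was 4 without R-2HG replicate 3 and 2 without IDH1mut replicate 3 or without R-2HG replicates 1 and 2.

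Markers of other blood cells moved with exposure too. Of 6 measured eosinophil genes 3 moved alike downwards (5.05% of all genes) and 4 were lower in the pooled comparison (23.2% of all genes), with a median of -1.27. The list's median per array lay between 0.04 and 0.82 in the unexposed arrays and between -1.17 and -0.44 in the exposed ones. Epx, eosinophil peroxidase, fell by 1.26 ± 0.30 and 1.73 ± 0.30, a call lost without IDH1wt replicate 3 or without R-2HG replicates 1 and 2. Siglecf, a lectin receptor of eosinophils, had effects of -1.33 ± 0.41 and -2.09 ± 0.41, and Prg3, a granule protein, fell by 0.79 ± 0.19 and 1.29 ± 0.19. Prg2, major basic protein, had effects of -1.83 ± 0.79 (adjusted p = 0.147) and -4.01 ± 0.79 (adjusted p = 0.0021). The count of 3 was 1 without IDH1wt replicate 2 or 3 or without IDH1mut replicate 1 or 2. Of 18 monocyte and macrophage genes 5 moved alike downwards and none upwards, beside 5.05% and 4.04% of all genes. Cd14, the lipopolysaccharide coreceptor, lay between 0.30 and 1.13 in unexposed arrays and between -0.83 and 0.08 in exposed ones, and fell by 0.88 ± 0.18 and 1.23 ± 0.18. Mrc1, the mannose receptor, Cd163, the haemoglobin scavenger receptor, and Ly86, a partner of a Toll-like receptor relative, had pooled differences of -0.75 ± 0.15, -0.65 ± 0.12 and -0.48 ± 0.09, and Irf8 is also on this list. The count of 5 was 1 without R-2HG replicates 1 and 2, 2 without IDH1wt replicate 2, and 3 without empty vector replicate 1, IDH1wt replicate 1 or 3, IDH1mut replicate 2 or 3, or R-2HG replicate 1 or 2. Whether these cells' share of the sort took part in the granule and interferon results was not tested.

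Of 14 dendritic cell and MHC class II genes Bst2 and H2-DMa moved alike downwards. For this paragraph's lists the shares of all genes that moved alike were 5.05% downwards and 4.04% upwards. H2-DMa, which loads peptides on MHC class II, fell by 0.61 ± 0.16 and 0.97 ± 0.16. The count of 2 was 8 without R-2HG replicate 3 and 1 without empty vector replicate 2, any IDH1wt array, IDH1mut replicate 2 or 3, R-2HG replicate 1 or 2, or both of the latter. Of 12 megakaryocyte genes Clec1b, a platelet lectin receptor, moved alike upwards (1.11 ± 0.18 and 1.03 ± 0.18), and 2 genes did without empty vector replicate 1. Of 12 mast cell and basophil genes, 16 erythroid genes, 17 B cell genes and 18 T and NK cell genes none moved alike by limma; at an unadjusted p under 0.05 with both sources, 1 did in each of the first pair of lists and 0 in the lymphoid lists. In the pooled comparison 8 of the T and NK cell genes were higher and none lower, beside 16.9% and 23.2% of all genes. Their median pooled difference was 0.17 log2, or 0.20 without R-2HG replicates 1 and 2. Of the erythroid genes 1 was higher, and their median pooled difference was 0.10 log2, or 0.64 without those arrays. Their part in the other results was not tested. The lymphoid lists held genes of opposite sign. Vpreb1, part of the pre-B cell receptor, had effects of 2.48 ± 0.44 and -1.93 ± 0.44. Of the subunits of the T cell receptor complex, Cd3d had effects of 0.92 ± 0.15 and -0.53 ± 0.15, and Cd3g of 1.13 ± 0.24 and -1.12 ± 0.24.

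The remaining lists are read beside the shares of all genes that moved alike, 4.04% upwards and 5.05% downwards. Counts lower in the pooled comparison are read beside 23.2% of all genes. Of 31 respiratory chain and ATP synthase genes 23 were lower in the pooled comparison. Their median pooled difference was -0.23 log2, or -0.19 without R-2HG replicates 1 and 2. Of the list 4 moved alike downwards, among them Ndufb5, a complex I subunit, by 0.47 ± 0.09 and 0.62 ± 0.09. The count of 4 was 1 without IDH1wt replicate 1 or IDH1mut replicate 3, and 2 without empty vector replicate 2 or 3, IDH1wt replicate 2 or 3, IDH1mut replicate 2, R-2HG replicate 2, or both R-2HG replicates 1 and 2. Of 26 genes of cholesterol and fatty acid synthesis 5 moved alike downwards and 1 upwards. Fasn, fatty acid synthase, fell by 0.59 ± 0.11 and 0.67 ± 0.11, Srebf1, a master factor of lipid synthesis, by 0.32 ± 0.07 and 0.41 ± 0.07, and Insig1, which holds such factors in the endoplasmic reticulum, by 0.35 ± 0.08 and 0.52 ± 0.08. The count of 5 was 2 without R-2HG replicates 1 and 2 or without IDH1wt replicate 3, and 3 without IDH1wt replicate 1 or IDH1mut replicate 1 or 2. The gene that rose, Sc5d, a sterol desaturase, was lost without empty vector replicate 3, R-2HG replicate 1 or 2, or both of the latter. Of 20 cytosolic ribosomal protein genes 4 moved alike downwards and 1 upwards. Rpl22 fell by 0.29 ± 0.07 and 0.51 ± 0.07, while the increase of Rps9 (0.29 ± 0.07 and 0.28 ± 0.07) joined probe sets that ranged from -0.07 to 0.92 and was lost without IDH1wt replicate 2 or 3 or without R-2HG replicates 1 and 2. The count of 4 was 2 without IDH1wt replicate 1 or IDH1mut replicate 2 and 1 without R-2HG replicates 1 and 2. Of 23 NF-kB and inflammatory genes 3 moved alike upwards and 1 downwards, with Nfkbiz, an atypical inhibitor of NF-kB, at 0.52 ± 0.08 and 0.31 ± 0.08. None of the 3 increases held without R-2HG replicates 1 and 2. The decrease, in the adhesion molecule Icam1, was lost without IDH1wt replicate 2 or 3, IDH1mut replicate 2 or 3, or both R-2HG replicates 1 and 2.

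Of 22 redox genes 3 moved alike upwards and 2 downwards. Pgd, which makes NADPH in the pentose phosphate pathway, rose by 0.34 ± 0.08 and 0.49 ± 0.08 on all 4 of its probe sets, and Nfe2l2, the antioxidant factor NRF2, by 0.33 ± 0.08 and 0.36 ± 0.08, whereas Gpx3, a secreted glutathione peroxidase, fell by 0.72 ± 0.21 and 1.52 ± 0.21. The second gene that fell was Gss, glutathione synthetase (-0.25 ± 0.08 and -0.23 ± 0.08). The count of 2 decreases was 0 without any 1 of the IDH1wt arrays or IDH1mut replicate 2, and 1 without any other single array but R-2HG replicate 3 and without R-2HG replicates 1 and 2. The number of increases was 2 without any 1 of the empty vector arrays, IDH1wt replicate 3 or R-2HG replicate 1 or 2, and 1 of the 3 increases held without R-2HG replicates 1 and 2. Of 23 amino acid stress genes 2 moved alike in each direction. The decreases were in Phgdh and Atf5, a stress-response factor (-0.44 ± 0.11 and -0.31 ± 0.11), and their number was 1 without any single array but IDH1mut replicate 1 (2) and R-2HG replicate 3 (3). Phgdh, the entry enzyme of serine synthesis, fell by 0.54 ± 0.10 and 0.85 ± 0.10 on all 4 of its probe sets and did so in all 19 settings. The number of increases, with Chac1 and Cebpg in the full data, was 0 without R-2HG replicate 1 or without replicates 1 and 2, and 1 without any other single array but IDH1mut replicate 2 and R-2HG replicate 3. Of 23 glycolysis and hypoxia genes 2 moved alike downwards: Pdk1, a kinase that limits pyruvate oxidation, by 0.39 ± 0.10 and 0.60 ± 0.10, and Car9, a carbonic anhydrase induced by hypoxia, by 0.44 ± 0.13 and 0.82 ± 0.13. Pdk1 was lost with the probe set of highest SD and without IDH1wt replicate 1 or IDH1mut replicate 1, and Car9 held in 12 of 19 settings. Of 23 heat shock and immediate early genes Jun moved alike downwards (-0.67 ± 0.17 and -1.17 ± 0.17), but not without IDH1wt replicate 1 or 3 or IDH1mut replicate 2 or 3, and Hspa1b had opposite effects (1.59 ± 0.37 and -2.06 ± 0.37). Jun stood at 1.11, 1.35 and 1.35 with the empty vector but at 0.09, -0.17 and -0.03 with IDH1wt, so its exposed and unexposed arrays overlapped. Of 21 genes of the TCA cycle and glutamate Got2, the mitochondrial aspartate transaminase, moved alike downwards, while 11 were lower in the pooled comparison (23.2% of all genes). Its call was lost without any empty vector array, IDH1wt replicate 1 or 3, IDH1mut replicate 2 or 3, or R-2HG replicate 2. Without R-2HG replicate 3, 3 genes of the list moved alike. The list's median pooled difference was -0.15 log2, or -0.13 without R-2HG replicates 1 and 2.

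Some genes were moved by 1 source or in opposite directions. Sall2, a zinc finger factor, lay at 4.92, 4.65 and 4.08 with IDH1mut and between -0.27 and 0.02 in the other 9 arrays. Its mutant effect was 4.66 ± 0.16 and its treatment effect 0.14 ± 0.16 (adjusted p of the difference 3.29e-06), and its pooled difference was 2.40. Mecom, a zinc finger factor of stem cells, had effects of 1.57 ± 0.13 and -0.29 ± 0.13 (adjusted p of the difference 0.00107). Tctex1d1, a dynein light chain relative, lay at -2.69, -2.61 and -2.79 with R-2HG and at 1.36, 1.53 and 1.49 with the empty vector, while the mutant effect was 0.24 ± 0.19. Slc16a9, a transporter of the monocarboxylate family, lay at 3.02, 2.95 and 1.20 with R-2HG and between -0.27 and 0.15 elsewhere. Fbp1, a gluconeogenic phosphatase, had effects of -0.13 ± 0.33 and 1.93 ± 0.33, and R-2HG replicate 3 stood at 0.00 against 1.61 and 1.78 in replicates 1 and 2. Klrc1, an NK cell receptor, rose with the mutant (1.46 ± 0.15) and fell with the treatment (-0.66 ± 0.15). Crhbp, which binds corticotropin-releasing hormone, had effects of 1.04 ± 0.31 and -2.37 ± 0.31, and its empty vector arrays (1.90, 2.63 and 2.42) lay above its IDH1wt arrays (-0.44, 0.00 and -0.23). Rhob, a GTPase of endosomes, had 0.34 ± 0.08 and -0.76 ± 0.08. The 2 unexposed groups differed in 214 genes (1.35%), and in 44 of the 1442 that moved alike.

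**Figure D4:**
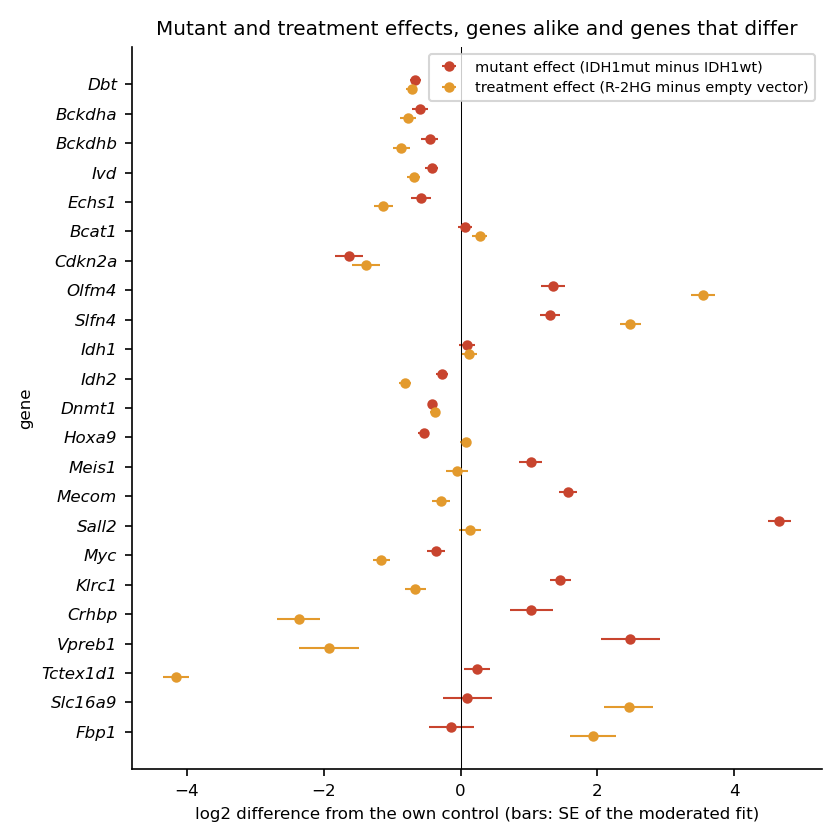
Mutant effect (red) and treatment effect (orange) of 23 named genes in log2, with bars for 1 SE of the moderated fit. The pairs lie close together for Dbt and Dnmt1, on the same side of 0 at different distances for Olfm4 and Slfn4, and on opposite sides for Klrc1, Crhbp and Vpreb1.

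The genes that moved alike, 4.04% upwards and 5.05% downwards of all genes, held 9 runs of at least 3 adjacent measured genes. How many runs would arise without regard to position was not tested. The runs that rose held Slfn2, Slfn1 and Slfn4 on chromosome 11, Ifit3, Ifit1bl1 and Ifit1bl2 on 19, Trim34a, Trim5, Trim12a and Trim12c on 7, Coro1a, Gdpd3, Ypel3 and Tbx6 on 7, and Chil3, Chil4 and Dennd2d on 3. Those that fell held Plppr3, Prtn3, Elane and Med16 on 10, Arl1, Utp20 and Ano4 on 10, Itga6, Pdk1 and Map3k20 on 2, and Crtap, Glb1 and Tmppe on 9. Coro1a, an actin regulator of leukocytes, rose by 0.56 ± 0.05 in the pooled comparison, Trim12c, an antiviral ubiquitin ligase, by 0.41 ± 0.06, and Chil3, a chitinase-like protein of neutrophils and macrophages, by 0.53 ± 0.06. Members of the Trim and Chil families can share probes, which makes the separate values uncertain. Over the chromosomes with at least 100 measured genes, the share of genes that moved alike ranged from 2.58% to 5.76% upwards and from 3.35% to 6.53% downwards.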

How the data were processed

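RNA from 12 cell samples, 3 in each of 4 groups, was measured on 12 1-colour arrays. The authors made log2 expression values with RMA, per the submitters' processing notes, and deposited them centred per probe set: values run from -6.48 to 4.93, at most 7 arrays of a probe set lie on 1 side of 0, and an exact 0 occurs in 83.6% of probe sets. The sources used here do not give the arrays that set the centre, the RMA version or any further step. The number of arrays limits the precision.

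Of 32533 probe sets, 28805 carried 1 gene symbol in the platform annotation, 757 several and 2971 none. Of the 28805, 28674 matched a RefSeq gene table and 0 symbols changed. A gene's value was the mean of its probe sets with 1 symbol, which gave 15858 genes, 8510 of them from 1 probe set. Among the 1442 genes that moved alike, 723 had several probe sets. All of a gene's probe sets moved alike on their own in 135 of these, and their pooled signs differed in 55.

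limma 3.58.1 (lmFit and eBayes, R 4.3.3) was fitted to all 12 arrays with 1 coefficient per group, which left 8 residual and 3.96 prior degrees of freedom. Tests were two-sided, and p-values were adjusted over all genes by Benjamini-Hochberg with a threshold of 0.05. The median SE was 0.07 log2 for the pooled comparison, 0.10 for each source and 0.14 for their difference. Errors in the text are SEs of this fit. The fit was tested on simulated data with known changes.

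Genes were named by a rule: the 15 largest pooled shifts in each direction among genes that moved alike without overlap of arrays, leaving out clone and predicted names; up to 5 genes of each of 33 lists that moved alike; the leading genes with opposite or unequal effects; and a few genes of the 2HG and HoxA9 model. Further members of the lists, and the genes named in chromosomal runs, were chosen after their values were seen. The members and lists were chosen with earlier results of these data known. Promoter windows came from RefSeq (GRCm38.p6). Alternatives were the probe set with the highest SD, a second quantile normalization, a robust spread, array weights, the replicate number as a block, a filter on SD that left out the lowest 30%, a minimum change of 1.5-fold, a 2-group fit, all 6 unexposed arrays as the control, and leaving out arrays singly or R-2HG replicates 1 and 2 together.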

Additional observations from a re-analysis of the deposited data

Results flagged for a closer look

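The mutant and the treatment effect differed, by the limma test of the difference itself, in 27 of the genes followed here, each given as the mutant effect minus the treatment effect in log2. Among genes that rose with both sources the difference was -2.19 for Olfm4, -1.17 for Slfn4, -0.823 for Pde1b and 0.864 for Ppp1r42. In Olfm4, Slfn4 and Pde1b the treatment moved the gene further from its own control. There IDH1wt also lay above the empty vector, by 0.83, 0.84 and 0.54, so part of each difference lay between the controls. Among genes that fell with both it was 1.48 for Ano4, 0.66 for Dhcr7 and, with the larger mutant effect, -0.417 for Mpo. Genes called with opposite signs had differences of 2.12 for Klrc1, 1.1 for Rhob, 3.4 for Crhbp, 4.41 for Vpreb1, 1.45 for Cd3d, 2.24 for Cd3g and 3.65 for Hspa1b. Transcription factors differed by 4.52 for Sall2, 1.87 for Mecom, 1.08 for Meis1, 0.798 for Myc and -0.613 for Hoxa9. Metabolic genes differed by 0.543 for Idh2, 0.589 for Hibadh, -2.06 for Fbp1 and -2.36 for Slc16a9. The remaining differences were 4.4 for Tctex1d1, 1.01 for Anxa1, 0.539 for Pglyrp1 and -0.581 for Slfn5. Over all genes the difference passed the test in 1672, and in 89 without R-2HG replicates 1 and 2.

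Probe sets with several gene symbols or none stood outside the gene comparisons. Of 3728 such probe sets 194 moved alike in both sources (5.20%), 100 higher and 94 lower, beside 7.70% of the probe sets with 1 symbol.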

How the results depend on the processing

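The counts that moved by more than 1.5 times did so as follows, beside 6358 genes in the pooled comparison, 2484 with the mutant, 6471 with the treatment, 1672 for the difference of sources and 1442 that moved alike. With R-2HG replicates 1 and 2 left out, which lends the remaining R-2HG array the spread of the other groups, they were 3857 pooled, 1824 with the treatment, 89 for the difference and 761 alike. A minimum change of 1.5-fold left 741, 596, 1627, 792 and 243 in the same order, by its construction. The 2-group fit called 3948 pooled. The count for the difference was 1095 after a second quantile normalization and 4787 with array weights, and 2236 genes moved alike (1342 shared) against all 6 unexposed arrays. The cause was not tested. Leaving out each array in turn gave 5338 to 6978 pooled, 1568 to 2977 with the mutant, 4588 to 7018 with the treatment, 446 to 3262 for the difference and 937 to 1753 alike. The lowest mutant and alike counts were without IDH1wt replicate 3, and the mutant count was 1636 without IDH1mut replicate 2. The count for the difference was 446 and 465 without R-2HG replicate 1 or 2, 456 and 506 without empty vector replicate 2 or 3, 818 and 633 without IDH1wt replicate 2 or 3, 765 without IDH1mut replicate 2 and 3262 without R-2HG replicate 3. Of the genes named, those that changed sign were not called in the pooled comparison: Vpreb1 at -0.033, Idh1 at -0.0097 and Hspa1b at 0.22 without R-2HG replicates 1 and 2; Tet2 at -0.0040 with the probe set of highest SD, at -0.0039 with array weights and from -0.042 to 0.056 over single arrays left out; and Cd3g at -0.091 with array weights and from -0.094 to 0.12 over single arrays. Of 114 genes followed here that moved alike, 55 did so in all 19 settings, while Mdm2 and Pbx3 did in 6, Cd163 in 7, Mcm2 in 8 and Siglecf, Slamf1 and Dhcr7 in 9. In the pooled comparison, other single-gene values kept their side of the threshold in 2750 cases, lost it in 16 and gained it in 5. With the replicate block, 6132 genes were called pooled and 1253 moved alike (1211 shared); same-numbered arrays correlated from -0.152 to 0.124 in their deviations, with 1 of 18 pairs over 0.1, so the numbers were not taken as pairing the arrays. On the array side, centred values carry no signal over background, so dim genes could not be told from bright ones.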
